A study of Mus musculus with 14 samples.

Results

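Inguinal fat of transgenic SRA mice infused with CGP (SRA_CGP, 4 libraries) was set against inguinal fat of non-transgenic mice infused with saline (CON, 3 libraries), to see how far transgenic fat on the agonist lay from baseline. These 7 libraries were taken from 14 by their labels, as the table columns numbered 14, 15, 18 and 19 for SRA_CGP and 10, 11 and 12 for CON. All mice were C57BL/6J, each library was taken as 1 mouse, and no ages or doses are given in the sources used here. CON held 2 males (replicates 1 and 2) and 1 female (replicate 3), and SRA_CGP held 2 males (replicates 1 and 2) and 2 females (replicates 3 and 4). The 2 groups differ in both transgene and infusion, so the share of each in a difference cannot be told apart from these 7 libraries alone. The other groups were SRA mice on saline (SRA, 3 libraries, 1 male and 2 females) and non-transgenic mice on CGP (CON_CGP, 4 libraries, 2 males and 2 females), and they entered the fit and are given beside each result.

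The renin-angiotensin system makes the peptide angiotensin II by stepwise cleavage of angiotensinogen, first by renin and then by angiotensin-converting enzyme. Angiotensin II acts through a type 1 receptor, which drives vasoconstriction and salt retention, and a type 2 receptor, which often opposes it. SRA mice carry an activated renin-angiotensin system in the brain. In the line of this name known from earlier work, human renin is made under a neuronal promoter and human angiotensinogen under its own. CGP is a peptide agonist of the type 2 receptor. Inguinal fat is a subcutaneous depot that can take on heat-producing, or beige, adipocytes, which burn fuel through an uncoupling protein in their mitochondria. The depot also holds a lymph node, vessels and, in females, mammary ducts, so a piece of it is a mixture of cells. In such bulk samples, fewer cells of a type and less RNA per cell cannot be told apart.

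The values were the deposited normalized values, rescaled between libraries by the median of their ratios and taken as log2(value + 1), for the 31967 of 55419 transcripts whose values averaged 100 or more across the series. Transcripts carry UCSC known-gene IDs that the files do not pair with gene names, and 0 IDs matched a name in the tables used here. Genes, markers of adipocytes or other cells, and the transgene could therefore not be checked, and no more than 2 IDs in each direction are given for a comparison. Totals were fixed at 79970748 to 79985973 in every library, so the depth behind a value is unknown.

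Some libraries stood apart or went against a clean split by sex. A set of 12 transcripts at 100 or more in all males and lower in every female, and 49 chosen the same way for females, were summed in each library. The male set stood at 1117 in the female CON replicate 3 and at 2083 in the female SRA_CGP replicate 3, which is 4.27% and 7.96% of the median male. It stood at 366 (1.4%) in the female SRA_CGP replicate 4. The female set stood at 4153 in the male SRA_CGP replicate 1, or 16.5% of the median female, against 261 (1.04%) in the male SRA_CGP replicate 2. It stood at 551 (2.19%) and 83 (0.33%) in the male CON replicates 1 and 2. Of the groups beside them, SRA replicate 3 stood apart by a set of transcripts described below.

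SRA_CGP libraries lay at very different distances from baseline. Distance was the root mean square log2 difference between 2 libraries over all tested transcripts. SRA_CGP replicate 2 lay 0.421 and 0.53 from the 2 male CON libraries and 0.9 from the female one. SRA_CGP replicate 1, the other male, lay 0.755 and 0.833 from the male CON libraries and 0.883 from the female one. SRA_CGP replicate 3 lay 1.1, 1.03 and 0.997 from CON replicates 1, 2 and 3. SRA_CGP replicate 4 was the farthest, at 1.28, 1.23 and 1.01. The 2 male CON libraries were 0.416 from each other, and the female one 0.779 and 0.872 from them. Thus 1 transgenic mouse on the agonist was about as near to an untreated male as the untreated males were to each other, and the 2 transgenic females were farther from every CON library than any 2 CON libraries were.

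**Figure D1:**
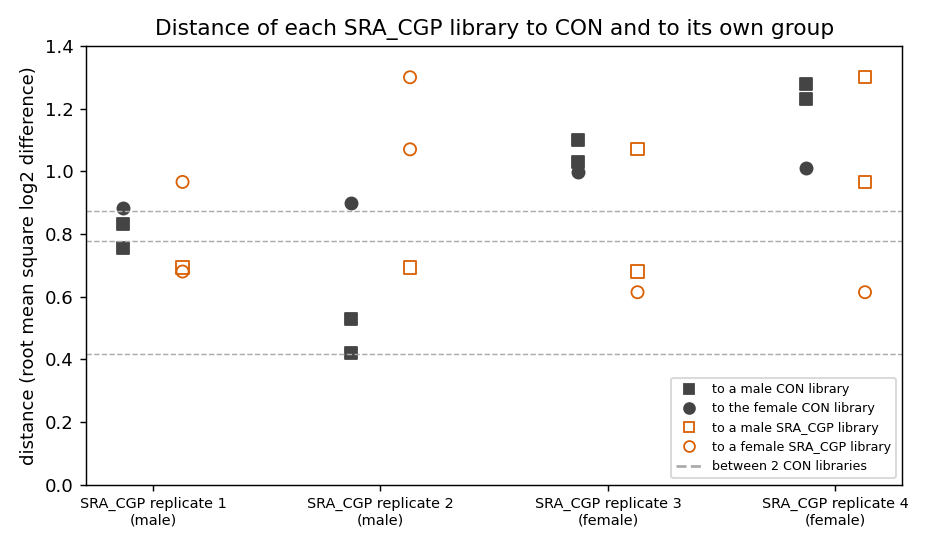
Distance (root mean square log2 difference, y axis) of each SRA_CGP library (x axis) to the 3 CON libraries (filled) and to the other SRA_CGP libraries (open), with dashed lines for the 3 pairs of CON libraries. Replicate 2 lies at 0.421 and 0.53 from the male CON libraries, below its distances to its own group, of which the smallest is 0.693.

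Averaged over all pairs, with the sexes mixed, the groups were little farther apart than their own libraries. The mean distance was 0.915 over the 12 pairs of an SRA_CGP with a CON library and 0.821 over the pairs within the 2 groups, a ratio of 1.11. Within SRA_CGP the 6 pairs ran from 0.614, between the 2 females, to 1.3, between replicates 2 and 4. Among pairs of the same sex the distance between the groups was 0.758 ± 0.242 (SD over 6 pairs). Among pairs of different sex it was 1.07 ± 0.164 (6 pairs). Within the groups, pairs of the same sex averaged 0.416 in CON (1 pair) and 0.654 in SRA_CGP (2 pairs). Pairs of different sex averaged 0.826 in CON (2 pairs) and 1 in SRA_CGP (4 pairs). Each was below the distance between the groups for its kind of pair, and the ratio of 1.11 mixes both kinds in unequal shares. Beside these, CON and CON_CGP libraries were 0.732 ± 0.18 apart (SD over 12 pairs) and CON and SRA libraries 0.991 ± 0.215 (9 pairs). Pairs share libraries, so these spreads are descriptions and not errors of independent values.

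Principal components of all 14 libraries gave the same picture. The first held 40.5% of the variance. CON libraries scored -99, -80.5 and -22.5 on it, and SRA_CGP libraries 0.824, -93.2, 87.9 and 118 in the order of their replicates. Replicate 2 fell among the CON scores and the other 3 above them. The groups differed by 95.7 (28.3 ± 95 in SRA_CGP, n = 4, against -67.4 ± 39.9 in CON, n = 3, SD), which an exact permutation test, 2-sided, did not separate (p = 0.143, adjusted over 3 components 0.429). The 2 following components had exact permutation p = 0.314 and 0.657 (n = 4 and 3, adjusted 0.471 and 0.657). The 35 ways to relabel 7 libraries allow no p below 0.0286.

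No transcript passed the test of SRA_CGP against CON. limma, with a term for sex and all 14 libraries in 1 fit, called 0 of 31967 transcripts (0%) at an adjusted p under 0.05, and the smallest adjusted p was 0.161. At an unadjusted p under 0.05 stood 4370 transcripts (13.7%), of which 3120 were higher (9.76% of those tested) and 1250 lower (3.91%) in SRA_CGP. The direction followed the scaling: 71.4% of the 4370 were higher after median-of-ratios rescaling, 64.8% after quantile normalization and 21.2% with the values as deposited. The median log2 difference of all transcripts moved from 0.02 to -0.18 with the deposited values. The 100 most abundant transcripts held 16.6%, 23.4% and 17% of the deposited total in the 3 CON libraries. In SRA_CGP they held 22.1%, 19.2%, 28.2% and 26.1%, and their part in the shift was not tested. A fit blocked on replicate number called 5 transcripts, 2 higher and 3 lower, by limma, and the unblocked fit without SRA replicate 3 called 25, of which 22 were higher and 3 lower.

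Beside this contrast, each of the others also had 0 limma calls in the same fit, and they share libraries with it. The median size of the log2 difference was 0.22 for SRA_CGP against CON, 0.28 for SRA against CON and 0.15 for CON_CGP against CON. From SRA_CGP it was 0.15 to SRA and 0.16 to CON_CGP. The transcripts at an unadjusted p under 0.05 numbered 6569 (20.5%) for SRA against CON, 1415 (4.43%) for CON_CGP against CON, 2182 (6.83%) for SRA_CGP against SRA and 2164 (6.77%) for SRA_CGP against CON_CGP. Whether these differ from each other was not tested.

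The count at unadjusted p rested on single mice. Without SRA_CGP replicate 2, the one near the CON males, it went from 4370 to 9386 (29.4% of those tested), with 4814 higher and 4572 lower. It went to 1809 without the female CON replicate 3, when only males were left in CON, to 2462 without CON replicate 1 and to 2771 without SRA_CGP replicate 4. No other single library moved it by more than 1.5 times. Without the 6 libraries that held over 3% of the other sex's set it was 991 (3.1%), 528 higher and 463 lower, and limma called 0, in a fit with 2 libraries left in each of the 2 groups.

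**Figure D2:**
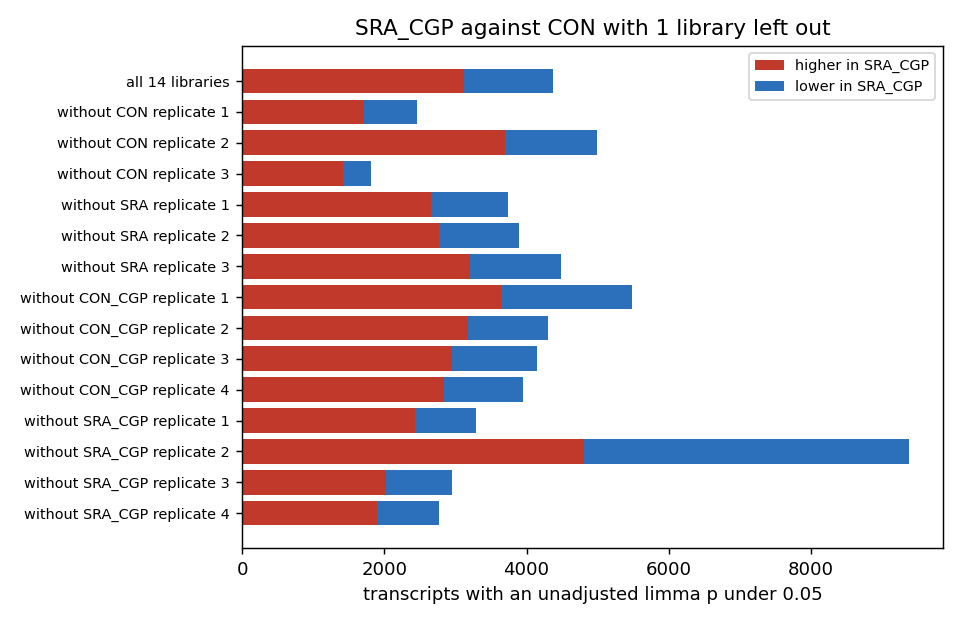
Number of transcripts (x axis) with an unadjusted limma p under 0.05 between SRA_CGP and CON, higher (red) and lower (blue), with all 14 libraries and with 1 left out in turn. The count is 4370 with all, 9386 without SRA_CGP replicate 2 and 1809 without CON replicate 3.

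The transcripts with the smallest p in each direction are given with every value, on the rescaled scale of the deposited values. None of the 4 passed, and being ranked by p they were bound to separate the groups well.

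uc008mkp.1 had the smallest p. It stood at 1752, 1536 and 2359 in CON and at 605, 668, 502 and 429 in SRA_CGP. All 4 SRA_CGP values lay below the lowest CON value. The log2 difference was -1.73 ± 0.23 (SE), 3.31-fold lower, with a limma adjusted p of 0.161. In SRA it was at 637, 501 and 692, close to SRA_CGP, and in CON_CGP at 834, 1331, 680 and 796, between the 2 groups. The same fit gave log2 differences of -1.53 ± 0.25 for SRA against CON and -1.03 ± 0.23 for CON_CGP against CON, at limma adjusted p of 0.132 and 0.959.

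uc012civ.1 stood at 445, 462 and 586 in CON and at 236, 257, 372 and 314 in SRA_CGP, again without overlap. The log2 difference was -0.83 ± 0.12 (SE), 1.77-fold lower, with a limma adjusted p of 0.161. SRA libraries lay at 361, 331 and 319 and CON_CGP libraries at 326, 361, 481 and 448, so SRA lay within the SRA_CGP range and CON_CGP was split between the 2 ranges. Without SRA replicate 3 both of these transcripts passed, at limma adjusted p of 0.0356 for uc008mkp.1 and 0.0347 for uc012civ.1, with log2 differences of -1.73 and -0.84.

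uc008ohb.1 was higher in SRA_CGP. It stood at 746, 783 and 601 in CON and at 1996, 1291, 1312 and 1316 in SRA_CGP, and the SRA_CGP mice other than replicate 1 were close together. The log2 difference was 1.09 ± 0.17 (SE), 2.12-fold, with a limma adjusted p of 0.225. SRA libraries lay at 1159, 1126 and 1209 and CON_CGP libraries at 1628, 1010, 975 and 1041, so every library outside CON was above every CON library.

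uc007baa.1 stood at 738, 906 and 930 in CON and at 1556, 1407, 1677 and 1638 in SRA_CGP. The log2 difference was 0.86 ± 0.14 (SE), 1.82-fold, with a limma adjusted p of 0.272. In SRA it was at 1195, 1061 and 1131 and in CON_CGP at 1557, 1063, 1442 and 1153, above CON in all 7. The log2 difference was 0.37 ± 0.15 for SRA against CON and 0.58 ± 0.14 for CON_CGP against CON, where limma adjusted p were 0.211 and 0.959. The contrast of uc007baa.1 was close in both sexes, at 0.83 in females and 0.85 in males. It was 1.13 and 1.07 for uc008ohb.1, -0.77 and -0.88 for uc012civ.1, and -2.34 and -1.37 for uc008mkp.1.

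**Figure D3:**
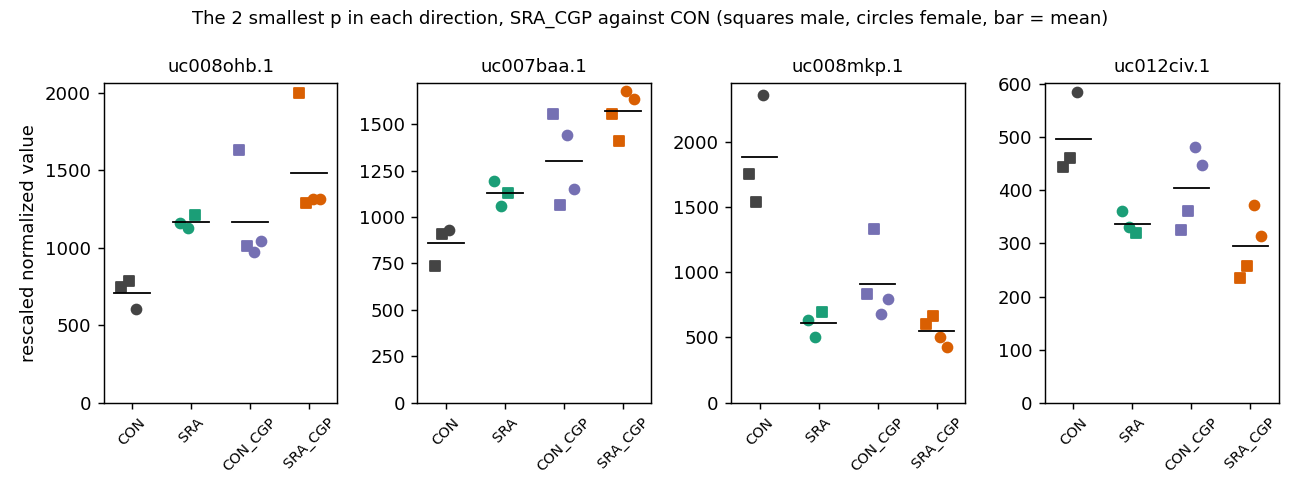
Rescaled normalized value (y axis, from 0) of the transcripts with the 2 smallest p in each direction between SRA_CGP and CON, in each library of the 4 groups (x axis), with squares for males, circles for females and a bar at the group mean. CON and SRA_CGP libraries do not overlap in any panel, and SRA and CON_CGP libraries lie between or beside them.

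Over all tested transcripts, the 4 SRA_CGP libraries lay above all 3 CON libraries for 2971 (9.29%) and below them for 882 (2.76%). These are 2269 and 712 clusters once near-identical neighbours in the table, which may share reads, are counted as 1. With the deposited values the split turned to 1113 above and 2230 below, and with quantile normalization it was 2454 and 1005. Without SRA_CGP replicate 2, with 3 libraries against 3, it was 5742 above and 5962 below. A mean difference of at least 2-fold was also met by 255 of those above (0.798% of those tested) and 157 of those below (0.491%). These became 478 and 1884 without SRA_CGP replicate 2, and 203 and 254 with the deposited values. CON_CGP libraries stood clear of CON for 2156 transcripts in either direction (6.74%) and SRA libraries for 13151 (41.1%), against 3853 (12.1%) for SRA_CGP. Group sizes differ, and 3 libraries against 3 separate more easily than 4 against 3. These counts also take no account of sex, and CON held 2 males and 1 female while SRA held 1 male and 2 females. In the limma fit with sex, the shares at an unadjusted p under 0.05 were 20.5% for SRA, 13.7% for SRA_CGP and 4.43% for CON_CGP against CON.

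Each SRA_CGP library was then set against the range of the 3 CON libraries. Replicate 1 had 482 transcripts over 2-fold above the highest CON value and 72 over 2-fold below the lowest. Replicate 2 had 142 and 247, the fewest in all (389, 1.22% of those tested). Replicate 3 had 589 above and 2157 below, and replicate 4 had 541 and 2551 (3092 in all, 9.67%). The 2 males therefore left the baseline range in few transcripts, and the 2 females mostly downward. Among the other libraries the male CON_CGP replicate 1 also left it mostly downward, with 701 above and 1891 below. So did the female SRA replicate 1, with 306 above and 975 below. The female SRA replicate 2 had 537 and 476, and SRA replicate 3 had 1258 and 1307. The remaining CON_CGP libraries had 179, 555 and 296 in all, and SRA replicates 1 and 2 had 1281 and 1013.

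**Figure D4:**
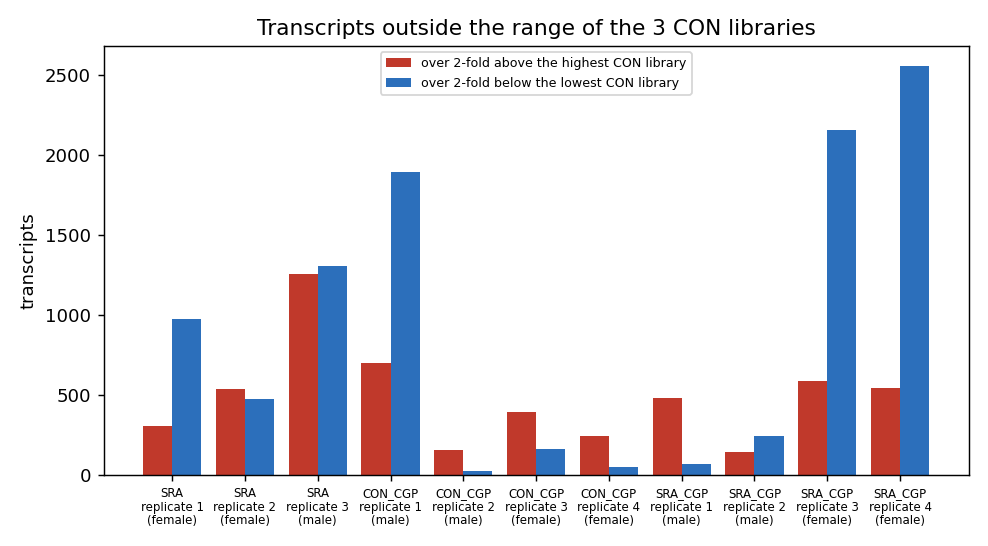
Number of transcripts (y axis) over 2-fold above the highest (red) or below the lowest (blue) of the 3 CON libraries, for each library of the other 3 groups (x axis). SRA_CGP replicates 3 and 4 have 2157 and 2551 below, against 72 and 247 in replicates 1 and 2.

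All 4 SRA_CGP libraries shared 119 of the 31967 tested transcripts over 2-fold above the CON range and 13 over 2-fold below it. For 30989 transcripts none of the 4 was over 2-fold above the range, and for 28941 none was over 2-fold below it. Of the 132 that only 3 of the 4 shared, replicate 2 was the one that did not reach it in 108. The following sets were chosen by these values, so their levels are a description.

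The 119 transcripts were hardly present in CON, with a summed level of 2799, 1878 and 2009. In SRA_CGP their sum was 291862, 18385, 358454 and 54737 in the order of the replicates, so replicates 1 and 3 were far above replicates 2 and 4. Their highest level was in none of these libraries. In SRA replicate 3 the sum was 6062395, or 6.48% of that library's deposited total, and 118 of the 119 were highest there. SRA_CGP replicates 1 and 3 held 4.81% and 5.91% of that level, SRA_CGP replicates 2 and 4 held 0.303% and 0.903%, and CON libraries 0.031% to 0.0462%. The other SRA libraries were at 11985 and 17327 and the CON_CGP libraries at 9208, 25495, 45109 and 35425. Across the 119 transcripts the log2 level in SRA_CGP libraries went with that in SRA replicate 3, at r = 0.906, 0.867, 0.952 and 0.912. It was 0.77 to 0.85 in CON_CGP, 0.771 and 0.758 in the other SRA libraries and 0.513 to 0.606 in CON. This is a correlation across transcripts, which are not independent. Only 78 of the 119 would reach a mean of 100 without SRA replicate 3.

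Most of the transcripts with larger upward differences were also highest in SRA replicate 3. Of the 255 transcripts that stood clear of CON by at least 2-fold upward, which include the 119, 220 (86.3%) were highest there. So were 30.5% of the 2971, against 14.8% of all tested transcripts. Only 176 of the 255 would reach a mean of 100 without SRA replicate 3, and 141 of these (80.1%) were highest there, against 14.3% of all transcripts that would. Of the 157 that stood clear downward by 2-fold, 1 was highest there. By the choice, no CON library can be highest in the upward sets, and no SRA_CGP library in the downward one. The shares of all transcripts are therefore not matched to these sets. Most of these upward transcripts thus had their highest level in 1 transgenic mouse on saline. Whether they vary together across libraries, and the part of the signal of that mouse in the result, were not tested. Within SRA_CGP, replicates 1 and 3 had the highest sums of the 119 and also the most of the other sex's transcripts (16.5% and 7.96%). The same held in SRA, where replicate 3 had 5.9% of the other sex's set and a sum of 6062395. SRA replicates 1 and 2 had 0.0458% and 0%, with sums of 11985 and 17327. In CON_CGP the order differed. CON_CGP replicates 1 and 4 had 12.6% and 8.66%, with sums of 9208 and 35425, and replicates 2 and 3 had 2.16% and 0.13%, with sums of 25495 and 45109. In CON, replicate 3 had the most (4.27%), with a sum of 2009, against 2799 in replicate 1 (2.19%). Whether the 2 go together was not tested. Whether the signal came from cells in the tissue or from carry-over between libraries was not tested, and the IDs carry no names. The 13 transcripts below CON in all 4 SRA_CGP libraries were chosen to be low in each of these. A high level in an SRA_CGP library was thus left out by the choice, and the set cannot show whether such a signal is absent. Their sum was 8295, 7871 and 14067 in CON and 2602, 2713, 2202 and 2128 in SRA_CGP. It was 3199, 2502 and 2163 in SRA and 6860, 10151, 5333 and 3138 in CON_CGP.

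A set of 1845 of the 31967 tested transcripts lay over 2-fold below CON in SRA_CGP replicates 3 and 4 only. The median transcript of the set stood 1141, 862 and 882 in CON, 652 and 1305 in SRA_CGP replicates 1 and 2, and 257 and 126 in replicates 3 and 4. SRA_CGP replicate 2 was above every CON library, with a median log2 difference from the CON mean of 0.42, and replicate 1 was at -0.52. Replicates 3 and 4 were at -1.81 and -2.67. Both are females, and the part of sex was not tested. In CON_CGP, which the choice of the set did not use, the females were at 0.04 and -0.42 and the males at -1.82 and 0.28. SRA libraries lay at -1.18, -0.74 and -1.22. From the 10th to the 90th percentile of the set, the difference ran from -4.57 to -1.49 in SRA_CGP replicate 4. In SRA_CGP replicate 2 it ran from 0.08 to 0.78. The set was chosen to be low in replicate 4 and not in replicate 2, so a gap between them was built in.

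**Figure D5:**
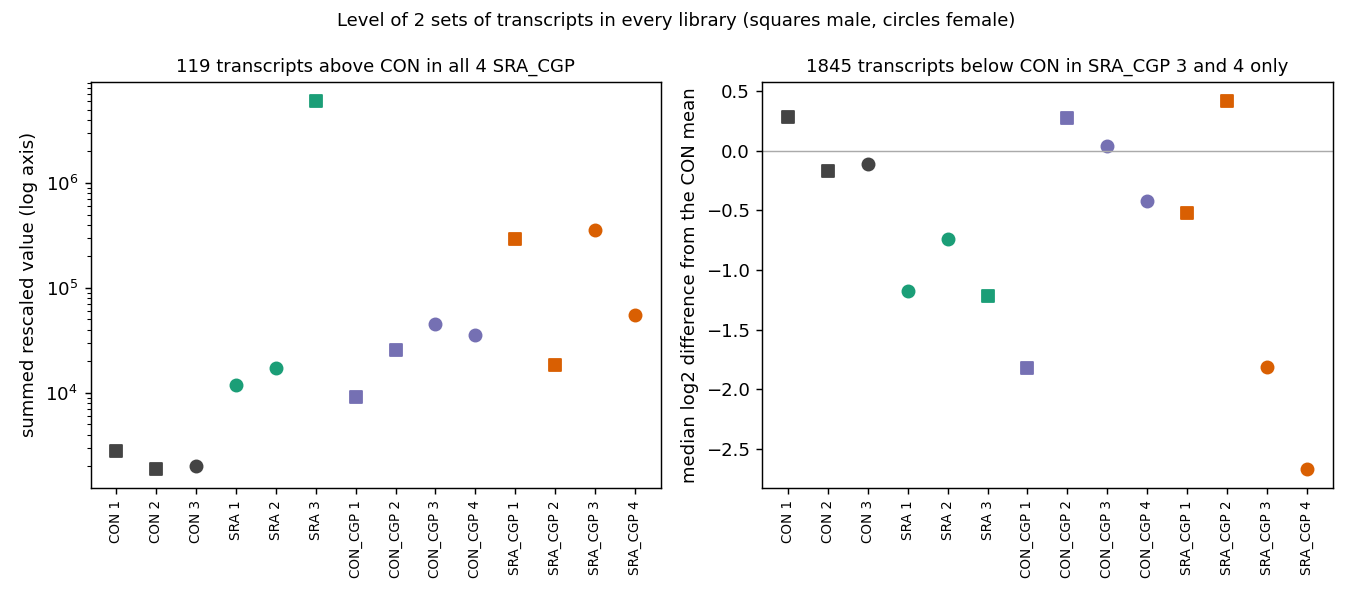
Left, summed rescaled value (log axis) of the 119 transcripts over 2-fold above CON in all 4 SRA_CGP libraries; right, median log2 difference from the CON mean of the 1845 transcripts over 2-fold below CON in SRA_CGP replicates 3 and 4 only; each in all 14 libraries (x axis). The left set peaks at 6062395 in SRA replicate 3, and the right set is lowest in SRA_CGP replicate 4 (-2.67), with the male CON_CGP replicate 1 at -1.82.

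Spread and abundance also set what could be seen. The median SD of a transcript among libraries of a group was 0.28 (log2) in SRA_CGP, 0.26 in CON_CGP, 0.19 in SRA and 0.18 in CON. By mean level, 8.7% of the 6347 transcripts from 100 to 300 differed 2-fold or more between SRA_CGP and CON, and 4.25% of the 5530 from 3000 upward. At an unadjusted p under 0.05 stood 8.96% of the first class and 21% of the last.

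Whether the contrast differed between females and males was tested with 1 term per group and sex. limma called 0 transcripts (0%), with a smallest adjusted p of 0.494 and 2779 (8.69%) at an unadjusted p under 0.05. The median size of the log2 difference was 0.4 in females and 0.15 in males. The female value rests on CON replicate 3 alone, which is assumed to vary like the other groups, and on the 2 SRA_CGP libraries farthest from baseline.

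The transcripts with the smallest p for this difference did not pass either, all at a limma adjusted p of 0.494. uc008tfk.2 stood at 1480 and 1656 in SRA_CGP females against 548 in the CON female, and at 533 and 423 in SRA_CGP males against 760 and 742 in CON males. The contrast was 1.51 in females and -0.66 in males, a difference of 2.17 ± 0.39 (log2, SE). uc008tfh.2 went the same way, at 1.12 and -0.46. uc008fls.1 went the opposite way, at 2461 and 2451 in SRA_CGP males against 1261 and 906 in CON males, and at 648 and 562 in SRA_CGP females against 943 in the CON female. Its difference was -1.84 ± 0.37 (log2, SE). For uc008kes.2, at -2.53 ± 0.39, the value rested on the CON female, which stood at 1773 while the other 13 libraries lay between 182 and 528.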

How the data were processed

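RNA was prepared by Trizol and column purification with removal of DNA before indexed Illumina sequencing, per the labels' protocols. The submitters' processing notes name FastQC, Bowtie, edgeR and the build mm9, with no version or role stated. The authors deposited 1 score per transcript and library, a normalized count per the file headers. The values are whole numbers with totals that differ by 0.019%. Every whole number from 0 to 40 occurred in all 14 libraries, so no step of whole reads was seen and no count model was run. Columns were tied to mice by the number in the sample description, and 0 were left over.

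Values were divided by median-of-ratios factors from the 39907 transcripts without zeros and analysed as log2(value + 1), so fold changes understate those of low transcripts. limma 3.58.1 in R 4.3.3 was fitted with 1 term per group, sex and trended, robust moderation, with Benjamini-Hochberg adjustment of 2-sided p-values across the 31967 transcripts. The fit was tested on simulated data. Named transcripts are the calls with the largest difference or, failing 2 calls in a direction, those with the smallest p, 1 per cluster of rows within 0.1 log2 units in every library. Members, lists and tests were chosen with earlier results of these data known. Gene and marker lists could not be applied without names. The labels do not state that each replicate is a separate mouse, and p-values measure the spread between these libraries, which may be partly technical.

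Replicate numbers are shared between CON and SRA_CGP, and the labels do not say what they stand for; numbers 1 and 2 are male and 3 is female in both. Deviations from group means of same-numbered libraries correlated at r = 0.51, 0.246 and 0.232, and with sex removed at 0.115, -0.144 and -0.301. No pairing by number was seen beyond sex, but with 1 value per number this was not tested. Values with the block are given because they change the count of calls.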

Additional observations from a re-analysis of the deposited data

Results flagged for a closer look

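In 28 groups of 4 libraries, 3 held a library with a wide gap to the rest. Chance gives such a gap in about 1 in 20 groups, and whether 3 is more than that was not tested. The groups are not independent, and 2 of the 3 are of uc008ohb.1, a transcript named for its small p. For uc008ohb.1, SRA_CGP replicate 1 stood at 1996 against 1291 to 1316 in the others, a gap of 0.956 of the range on the log2 scale. In CON_CGP, replicate 1 stood at 1628 for the same transcript against 975 to 1041, a gap of 0.872 of the range. CON_CGP replicate 1 also had 2592 transcripts over 2-fold outside the CON range against 179 to 555 in the other 3, a gap of 0.844.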

How the results depend on the processing

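limma called 0 transcripts between SRA_CGP and CON in all settings but 2: 5 with the replicate block and 25 without SRA replicate 3, and leaving out single libraries gave 0 to 25. With the replicate block 3520 had an unadjusted p under 0.05, and the 4 named transcripts did not pass (limma adjusted p 0.113 to 0.132). Leaving out single libraries moved the count at unadjusted p between 1809 and 9386. A minimum mean of 1000 gave 2601 of the 15486 then tested, fewer because fewer were tested. Leaving out the 6 libraries above 3% of the other sex's set, chosen after seeing the data, gave 991. The planned limit of 1% would have removed 10 libraries, all 4 of SRA_CGP among them, and could not be run.

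For the difference between the sexes limma called 0 in the main fit and in every alternative run. The count at unadjusted p was 1363 with a minimum mean of 1000, 4256 with the 7 libraries alone and 738 to 5824 with single libraries left out. It could not be fitted without CON replicate 3 or without the 6 libraries, as no CON female is then left. The named transcripts kept their direction in every setting that tested them, at log2 differences from 0.77 to 1.21 for uc008ohb.1, 0.66 to 0.92 for uc007baa.1, -1.93 to -1.22 for uc008mkp.1 and -1.03 to -0.77 for uc012civ.1. Component scores did not separate the groups under any of 4 alternatives, where again 1 component alone could not pass after adjustment. The ratio of distances ran from 1.04 to 1.41, the highest without SRA_CGP replicate 2. Depth is unknown, so no floor is given for low values.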
